A study of Rattus norvegicus with 8 samples.

Results

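The Cyp4 genes encode cytochromes P450 of the endoplasmic reticulum that hydroxylate fatty acids at or near the methyl (omega) end. Genes were taken as members where a probe set of the array was listed for a single symbol that starts with Cyp4 and goes on with a lower-case letter, and a probe set whose log2 values spanned at least 0.05 over all arrays was counted as measured. The rule found 10 genes on 12 probe sets, out of 14218 genes with a single symbol, and 7 of the 10 were measured: Cyp4a1, Cyp4a3, Cyp4a8, Cyp4b1, Cyp4f1, Cyp4f4 and Cyp4f6. Each of these 7 genes had 1 measured probe set. Cyp4f5, Cyp4f17 and Cyp4v3 were found but not measured. Cyp4a2 had no probe set of its own and shared 1 with Cyp4a3. The smallest span among the measured members was 0.183 (Cyp4f1) and the largest among the others was 0.00074 (Cyp4v3), so no member lay near the limit.

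The livers came from male Wistar rats aged 8 weeks. The 4 HP rats had been fed an AIN-93G-based diet with 1.2% phosphorus for 24 days and the 4 control rats the same kind of diet with 0.3% phosphorus, after both groups had been acclimatized on the control diet. RNA of each liver was hybridised to 1 Affymetrix rat array, so each array stands for 1 animal and 4 arrays per diet limit the precision. Values are log2 intensities summarised by FARMS, which models what the probes of 1 set have in common; sets whose probes have little in common come out almost flat across arrays. The median of every array lay between 6.652 and 6.653, and 4155 of 31042 probe sets were measured.

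In fatty acid omega-oxidation a Cyp4 enzyme places a hydroxyl group on the terminal carbon, alcohol and aldehyde dehydrogenases oxidise it to a carboxyl group, and the dicarboxylic acid that results is shortened in peroxisomes. The Cyp4a enzymes of rat liver act mainly on medium- and long-chain fatty acids, and their genes are classical targets of PPARα, the receptor of fatty acids and fibrates, which binds DNA together with RXRα at repeats of the half-site AGGTCA. The Cyp4f enzymes act on leukotriene B4, arachidonic acid and other long-chain lipids, and Cyp4b1 is best known from lung. According to the gene order of the RefSeq table (GRCr8), the Cyp4a genes and Cyp4b1 neighbour each other on chromosome 5, in the order Cyp4a8, Cyp4a2, Cyp4a2l1, Cyp4a3, Cyp4a1 and Cyp4b1. Cyp4f17, Cyp4f5, Cyp4f4, Cyp4f1 and Cyp4f6 lie in that order on chromosome 7, and Cyp4v3 on chromosome 16.

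Within the Cyp4 family the difference between the diets was clearest in Cyp4a3, and no Cyp4f gene was called. Rank products, the test of the study, called Cyp4a3 and Cyp4a1 higher in the HP rats at an FDR under 0.05, which is 2 of the 7 measured members, against 8.5% of all measured probe sets. The Cyp4a1 call was lost without HP rat 3 (FDR 0.0781) and when only measured probe sets were ranked (FDR 0.235). None of the 7 was called lower, against 12.1% of measured probe sets. The limma model called none of the 7 in either direction at an adjusted p under 0.05, and 0 of 4155 probe sets in all (0.0%). At an unadjusted limma p under 0.05, Cyp4a3 alone of the members was higher (5.37% of measured probe sets) and no member was lower (7.29%). Cyp4a3 was also the only member whose values did not overlap between the diets: all HP rats above all control rats was found for 3.1% of measured probe sets, and all below for 4.07%. The permutations of rank products exchange values among the probe sets of an array, so that its FDR is not set by the spread between rats of a diet as the limma p is. The median difference of the 7 members, HP minus control, was 0.03 (log2), against -0.02 over all measured probe sets.

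**Figure D1:**
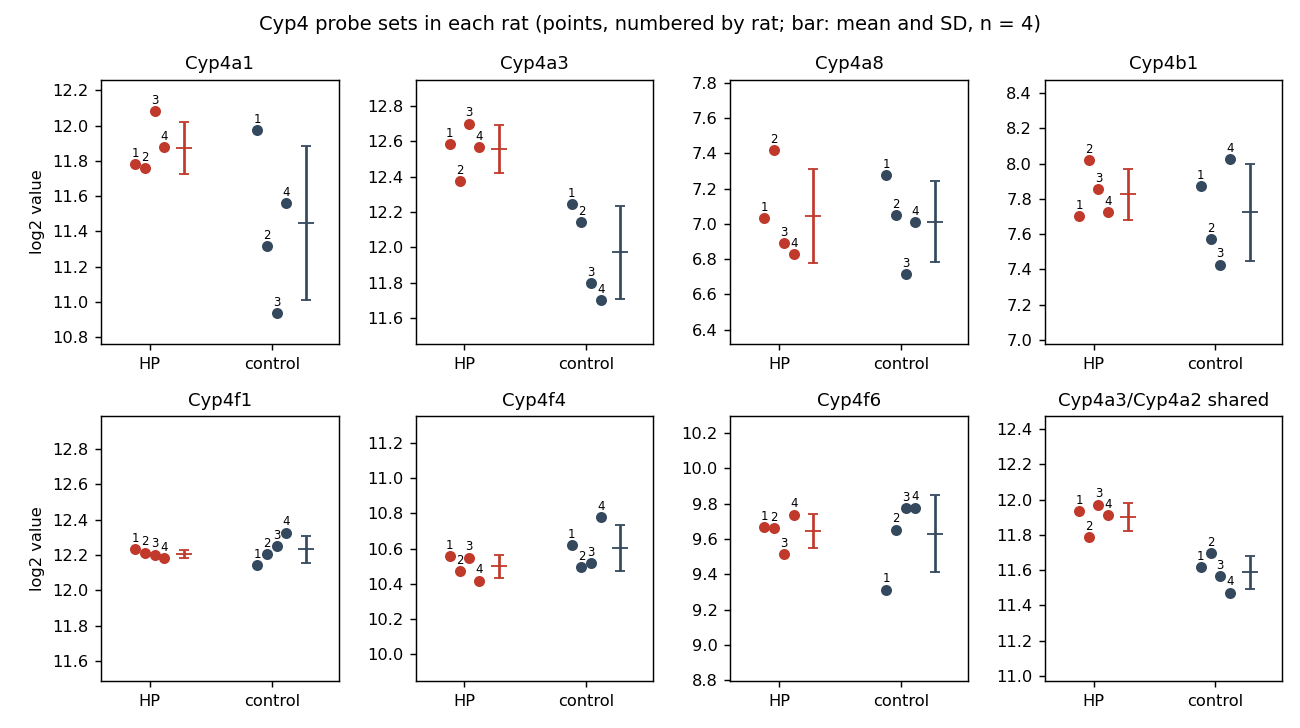
Log2 value of each rat (points, numbered by rat) for the 7 measured Cyp4 genes and for the probe set shared by Cyp4a3 and Cyp4a2, HP rats left and control rats right, with the mean and SD (n = 4); each panel spans the same range of log2 units, placed at its own level. The HP points lie wholly above the control points for Cyp4a3 and the shared probe set, and for Cyp4a1 control rat 1 lies among the HP rats.

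Cyp4a3, a fatty acid omega-hydroxylase, had log2 values of 12.59, 12.38, 12.70 and 12.57 in HP rats 1 to 4 (probe set 1370397_at). In control rats 1 to 4 they were 12.25, 12.14, 11.80 and 11.70. The lowest HP rat lay 0.13 above the highest control rat. The means were 12.56 ± 0.13 in HP rats and 11.97 ± 0.26 in control rats (SD, n = 4 each), a difference of 0.59 (log2, standard error 0.12), or 1.50-fold. Rank products placed this probe set at rank 14 of the higher ones, with an FDR of 0.000214, while the limma adjusted p was 0.209 (unadjusted p = 0.00116). With single rats left out the difference was lowest at 0.50 (control rat 4 omitted) and highest at 0.68 (control rat 1 omitted), and each of these 8 fits kept the rank products call.

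A probe set listed for both Cyp4a3 and Cyp4a2 was assigned to neither gene. Its log2 values in HP rats 1 to 4 were 11.93, 11.79, 11.97 and 11.91, and those in control rats 1 to 4 were 11.62, 11.70, 11.57 and 11.47. These groups did not overlap. Its difference was 0.31 (standard error 0.06, 1.24-fold), with an FDR of 0.00529 by rank products and an adjusted p of 0.167 by limma. Across the 8 rats it followed the Cyp4a3 probe set closely (Pearson's r 0.961, Spearman's rho 0.976, and r 0.851 after each diet was centred on its own mean), a description over 8 livers in which the probe sets may also share target sequence. How much of either signal comes from Cyp4a2 transcripts was not tested.

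The bases upstream of the Cyp4a genes are shown because Cyp4a3 and Cyp4a2 share both a probe set and nearly the same promoter. The 250 bases before the annotated start are given 5′ to 3′ on the strand of the gene, from RefSeq (GRCr8, chr5:134352237-134352486 for Cyp4a3, chr5:134170909-134171158 for Cyp4a2, chr5:133970227-133970476 for Cyp4a8 and chr7:12672554-12672803 for Cyp4f1, all on the minus strand), with AGGTCA in capitals wherever it occurred.
Cyp4a3: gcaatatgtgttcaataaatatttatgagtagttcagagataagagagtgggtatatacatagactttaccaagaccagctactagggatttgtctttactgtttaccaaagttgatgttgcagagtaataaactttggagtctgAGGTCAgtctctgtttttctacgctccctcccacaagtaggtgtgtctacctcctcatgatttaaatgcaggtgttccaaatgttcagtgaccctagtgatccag
Cyp4a2: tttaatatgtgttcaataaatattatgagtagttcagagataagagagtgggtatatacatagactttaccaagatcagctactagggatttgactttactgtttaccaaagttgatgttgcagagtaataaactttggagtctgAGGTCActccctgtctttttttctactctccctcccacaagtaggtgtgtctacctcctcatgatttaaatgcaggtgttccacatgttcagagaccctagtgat
Cyp4a8: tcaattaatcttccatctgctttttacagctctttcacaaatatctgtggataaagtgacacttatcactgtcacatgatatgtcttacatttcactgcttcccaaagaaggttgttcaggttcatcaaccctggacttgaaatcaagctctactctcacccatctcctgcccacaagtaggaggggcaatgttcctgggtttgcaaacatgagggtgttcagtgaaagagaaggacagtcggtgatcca
Cyp4f1: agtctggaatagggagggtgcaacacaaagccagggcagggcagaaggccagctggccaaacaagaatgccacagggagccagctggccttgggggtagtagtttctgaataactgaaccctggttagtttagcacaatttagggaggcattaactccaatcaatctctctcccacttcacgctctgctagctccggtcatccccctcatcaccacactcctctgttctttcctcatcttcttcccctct
Cyp4a3 and Cyp4a2 were identical at 236 of 245 aligned bases (96.3%), and in both AGGTCA began 105 bases before the start on the strand of the gene. Of the 11 genes considered (the 10 members and Cyp4a2), 7 had an entry in the promoter table, and the motif was found on either strand in these 2 and in none of the other 5, Cyp4a8, Cyp4b1, Cyp4f1, Cyp4f5 and Cyp4f6. It was present in 14.1% of all 33469 promoters of this length. A match of 6 letters is a description of the window and does not show binding, and an absent match says only that these letters do not occur in it. Cyp4a1, Cyp4f4, Cyp4f17 and Cyp4v3 were not matched to a promoter.

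Cyp4a1, a lauric acid omega-hydroxylase and one of the genes most used as a marker of fibrate response in the rat, had log2 values of 11.78, 11.76, 12.08 and 11.88 in HP rats 1 to 4 (probe set 1368934_at). In control rats 1 to 4 they were 11.98, 11.32, 10.94 and 11.56. Control rat 1 lay higher than 3 of the 4 HP rats, and the other 3 control rats lay below every HP rat. The means were 11.88 ± 0.15 in HP rats and 11.45 ± 0.43 in control rats (SD, n = 4 each), a difference of 0.43 (standard error 0.19, 1.35-fold). The FDR was 0.00654 by rank products at rank 89, and the limma adjusted p was 0.398 (unadjusted p = 0.0522). The rank products call was lost without HP rat 3 (FDR 0.0781) and when only measured probe sets were ranked (FDR 0.235), where Cyp4a3 kept an FDR of 0.0309. The difference was 0.26 without control rat 3 and 0.60 without control rat 1.

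The identity of this probe set is not settled. Its gene number in the annotation table is that of Cyp4a1, but the transcript listed for it belongs to Cyp4b1 in the RefSeq table. Its profile had a Pearson's r of 0.656 with the Cyp4b1 probe set and of 0.751 with the Cyp4a3 probe set over the 8 rats (rho 0.381 and 0.762). After centring each diet these r were 0.649 with Cyp4b1 and 0.564 with Cyp4a3. Its mean level was 11.66, against 7.77 for the Cyp4b1 probe set and 12.26 for the Cyp4a3 probe set. Which transcript it measures was not tested. The probe set is called Cyp4a1 here, as the platform names it.

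Cyp4a8, a further fatty acid hydroxylase gene, which is expressed in liver and kidney, had log2 values of 7.03, 7.42, 6.89 and 6.83 in HP rats 1 to 4. The control rats had 7.28, 7.05, 6.72 and 7.01. The diets overlapped over most of their range, and the difference was 0.03 (standard error 0.16, adjusted p = 0.955 by limma, FDR 0.592 for higher by rank products). It was -0.09 without HP rat 2 and -0.07 without control rat 3, so its sign rested on single rats. This probe set was dim: its mean was 7.03, and 6.1% of measured probe sets were dimmer, against 96.9% for the Cyp4a3 probe set. A further probe set of Cyp4a8 was not measured (mean 6.457, span 0.00064).

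Cyp4b1, which hydroxylates short- and medium-chain fatty acids and activates some foreign compounds, had log2 values of 7.70, 8.02, 7.86 and 7.72 in the HP rats. The control rats had 7.87, 7.57, 7.43 and 8.02. The highest control rat and the highest HP rat were level, and the diets overlapped. The difference was 0.10 (standard error 0.14, adjusted p = 0.771 by limma, FDR 0.312 by rank products), smaller than the SD among the control rats (0.27, n = 4). It was 0.0033 without control rat 3 and 0.20 without control rat 4.

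Among the Cyp4f genes, Cyp4f1, a leukotriene B4 and arachidonic acid hydroxylase, had the narrowest spread of the measured members. Its log2 values were 12.23, 12.21, 12.20 and 12.18 in HP rats 1 to 4, against 12.14, 12.20, 12.25 and 12.33 in control rats 1 to 4. All HP rats lay inside the range of the control rats, with a difference of -0.02 (standard error 0.04, adjusted p = 0.824 by limma) that was 0.01 without control rat 4.

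Cyp4f4, which hydroxylates leukotriene B4 and arachidonic acid, had the largest difference of the Cyp4f genes. Its log2 values were 10.56, 10.47, 10.55 and 10.42 in the HP rats, against 10.62, 10.50, 10.52 and 10.78 in the control rats. The groups overlapped, and control rat 4 was the highest of all. The difference was -0.11 (standard error 0.07, adjusted p = 0.527 by limma, FDR 0.214 for lower by rank products), and -0.05 without control rat 4.

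Cyp4f6, which also acts on leukotriene B4, had log2 values of 9.67, 9.66, 9.51 and 9.74 in HP rats 1 to 4. In control rats 1 to 4 they were 9.31, 9.65, 9.78 and 9.78. The HP rats lay within the control range, and control rat 1 was the lowest of all. The difference was 0.02 (standard error 0.11, adjusted p = 0.965 by limma), and it was -0.09 without control rat 1.

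Of the members that were not measured, Cyp4f5, another enzyme of leukotriene B4 in the rat, had a mean of 6.451 and a span of 0.00053. Cyp4f17 had a mean of 6.635 and a span of 0.00066. Cyp4v3, whose human counterpart CYP4V2 hydroxylates medium-chain fatty acids, had means of 6.597 and 6.539 on its 2 probe sets. A nearly constant value after FARMS carries almost no variation between arrays, so nothing can be said of the diet for these 3 genes.

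Set against each other, the measured Cyp4a genes had the larger mean difference and the Cyp4f genes one near 0. The mean difference, HP minus control, was 0.35 over Cyp4a1, Cyp4a3 and Cyp4a8 (0.03 to 0.59) and -0.04 over Cyp4f1, Cyp4f4 and Cyp4f6 (-0.11 to 0.02), so that the subfamilies were 0.39 apart. Each gene was then taken as its deviation from its own mean over the 8 rats and averaged within a subfamily. The Cyp4a mean deviation was 0.15, 0.20, 0.24 and 0.11 in HP rats 1 to 4, against 0.18, -0.15, -0.50 and -0.23 in control rats 1 to 4. Control rat 1 lay among the HP rats and the other control rats below them. The Cyp4f mean deviation was 0.02, -0.02, -0.05 and -0.02 in the HP rats, against -0.11, -0.02, 0.05 and 0.16 in the control rats, whose range held every HP rat. The Cyp4a value minus the Cyp4f value was 0.19 ± 0.08 in HP rats and -0.19 ± 0.37 in control rats (SD, n = 4 each). The highest HP rat, number 3, had 0.289, and control rat 1 had 0.292. No test was made of this score, since the members were chosen with results known. Without the probe set of unsettled identity the subfamilies were 0.35 apart, and the gap was 0.27 without control rat 3 and 0.55 without control rat 1.

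**Figure D2:**
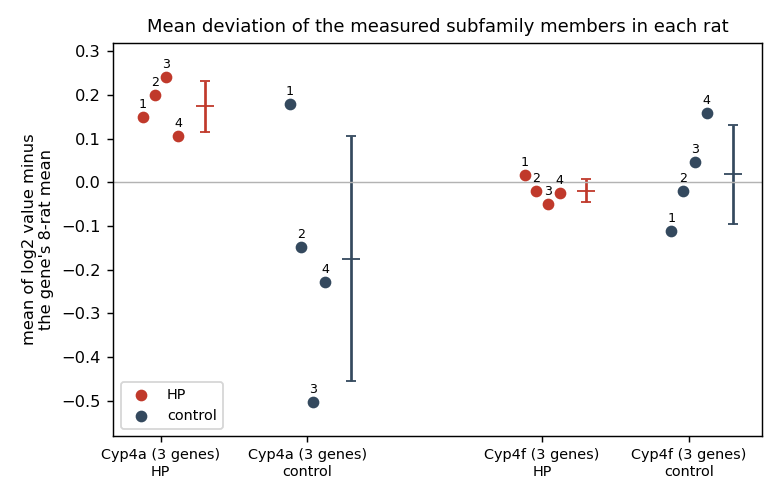
Mean deviation of the 3 measured Cyp4a genes and of the 3 measured Cyp4f genes in each rat (log2 value minus the gene's mean over 8 rats; points numbered by rat, bars the mean and SD, n = 4), HP rats left of control rats. Control rat 1 lies with the HP rats for Cyp4a and lowest of all for Cyp4f.

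The control rats varied more among themselves than the HP rats did in 6 of the 7 measured members, Cyp4a8 being the exception. For Cyp4a1 the range was 0.32 in HP rats and 1.04 in control rats, and for Cyp4a3 it was 0.32 in HP rats and 0.55 in control rats. A wider control range was common on these arrays: it was found in 67.3% of all measured probe sets. Control rat 3 was the lowest of all rats for Cyp4a1, Cyp4a8 and Cyp4b1. Around the diet means, Cyp4a3 was higher where Cyp4f1 and Cyp4f6 were lower, with a Pearson's r after centring each diet of -0.836 with Cyp4f1 and of -0.797 with Cyp4f6 (n = 8 rats, r -0.633 and -0.372 without centring). With Cyp4f4, the remaining Cyp4f gene, it was -0.271 for Cyp4a3, and for Cyp4a1 it was 0.462. These are descriptions over the same 8 livers and arrays.

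**Figure D3:**
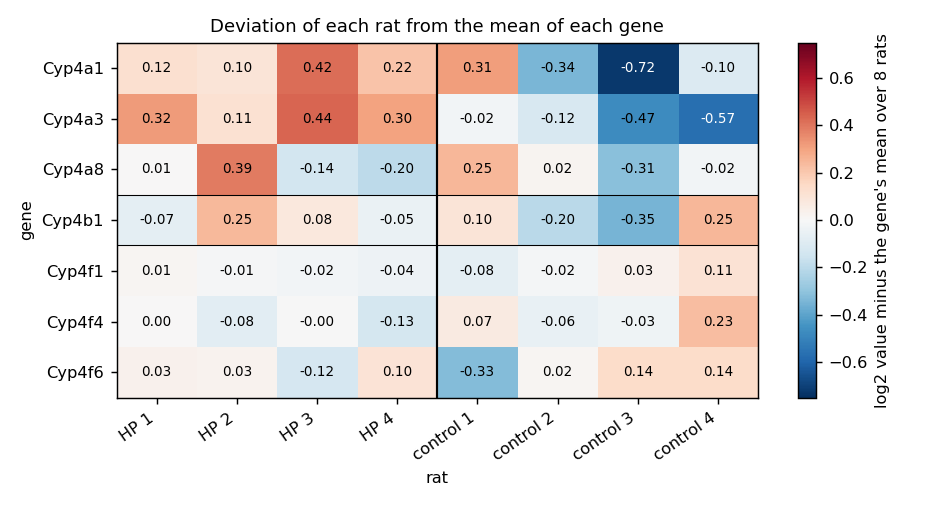
Deviation of each rat (columns, HP rats left of the line, control rats right) from the mean of each measured Cyp4 gene over the 8 rats (rows; log2, colour and number). Cyp4a3 is positive in every HP rat and negative in every control rat, and Cyp4a1 departs from that only in control rat 1.

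Named genes were also ranked by the likeness of their profile to Cyp4a3 and to Cyp4f4, the genes with the largest difference in each subfamily, by Pearson's r over the 8 rats among 2807 other measured genes. The 5 most like Cyp4a3 were Kdr, the receptor of vascular endothelial growth factor (r 0.966), Ablim3, an actin-binding protein (0.955), Zfand6, a zinc finger protein (0.949), Pex11a, which promotes the division of peroxisomes (0.943), and Mt2A, a metallothionein (0.942). After each diet was centred these r were 0.869, 0.937, 0.804, 0.894 and 0.839 in the same order. All 5 were called higher by rank products, with differences of 0.14 (Zfand6) to 1.02 (Mt2A). They were chosen for likeness to a gene whose diets did not overlap, which largely sets their direction, so these calls are no separate result. The 5 most like Cyp4f4 were Bhlhe40, a clock-linked repressor (r 0.931), Stk35, a kinase (0.930), Plcb1, a phospholipase C (0.928), Frat2, a regulator of Wnt signalling (0.925), and LOC100912031 (0.912), with r of 0.906 to 0.957 after centring. Of these, Bhlhe40 was called lower by rank products, with a difference of -0.36 and an FDR of 0.0222, and the other 4 were not called.

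Kdr marks endothelium, and 2 of the 4 measured sinusoidal endothelial markers were called higher by rank products, against 8.5% of all measured probe sets. Kdr was singled out through its likeness to Cyp4a3, so its call is no separate result. Kdr was 10.15 ± 0.07 in HP rats and 9.88 ± 0.10 in control rats, and Stab2, a scavenger receptor of sinusoids, 8.77 ± 0.10 in HP rats and 8.54 ± 0.09 in control rats (SD, n = 4 each; adjusted p of 0.217 for Kdr and 0.320 for Stab2 by limma). The summed level of the 4 markers, with log2 values turned back to a linear scale, ran from 3295 to 3676 in HP rats and from 2960 to 3331 in control rats. Pecam1, Stab1, Tek and Eng were nearly constant. The part of these markers in the Cyp4a difference was not tested. In whole liver, more cells of a type and more RNA per cell cannot be told apart.

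Of 5 measured hepatocyte markers none was called higher and Cps1, the first enzyme of the urea cycle, was called lower (difference -0.27, FDR 0.0168, adjusted p = 0.217 by limma), with no overlap between the diets. Each gene stands here at its brightest measured probe set, and Hnf4a, a hepatocyte nuclear receptor, differed by -0.10 and was not called there, while a dimmer probe set of it differed by 0.45 and was called higher by rank products (FDR 0.00514, adjusted p = 0.320 by limma). The summed level of the 5 at these probe sets ran from 41200 to 42423 in HP rats and from 42254 to 44016 in control rats. None of the 9 measured markers of Kupffer cells and macrophages and none of the 6 of stellate cells and fibroblasts was called. The markers of bile duct epithelium (6 on the array) and of kidney tubules (7) were all nearly constant, which includes the kidney markers Slc34a1, Umod and Aqp2, and albumin and other major plasma proteins were nearly constant at high values (14.53 for Alb).

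The genes around omega-hydroxylation were then followed through the pathway. Among 9 measured genes for the steps after the Cyp4 enzymes (alcohol and aldehyde dehydrogenases and fatty acid activation), 1 was called higher and none lower by rank products, with a median difference of 0.11. Of all measured probe sets, 8.5% were called higher and 12.1% lower. Aldh1a1, a retinal and fatty aldehyde dehydrogenase, had 11.04 ± 0.32 in HP rats and 10.29 ± 0.84 in control rats (SD, n = 4 each), a difference of 0.75 (FDR 0.000964, adjusted p = 0.425 by limma), and control rats 1 and 4 lay among the HP rats. Slc27a2, a very long-chain acyl-CoA synthetase, was the only one of the 9 whose diets did not overlap, with 12.97 ± 0.02 in HP rats and 12.85 ± 0.08 in control rats (FDR 0.0507, adjusted p = 0.332 by limma); it is named because its values were seen. Aldh3a2, the fatty aldehyde dehydrogenase of the endoplasmic reticulum, was 11.97 ± 0.08 in HP rats and 12.05 ± 0.07 in control rats, and it was not called.

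Dicarboxylic acids are taken up and shortened by peroxisomes, and 7 of 11 measured genes of that list were called higher by rank products and none lower. Of all measured probe sets, 8.5% were called higher and 12.1% lower. The median difference of the list was 0.37. The list holds genes known as PPARα targets and was drawn up with results of these arrays known, so its direction is no independent evidence. Acot4, a peroxisomal thioesterase of succinyl-CoA and dicarboxylyl-CoA, had log2 values of 9.13, 9.54, 9.20 and 9.22 in the HP rats, against 9.03, 8.60, 8.23 and 8.01 in the control rats. Every HP rat lay above every control rat, with a difference of 0.81 (standard error 0.20, adjusted p = 0.217 by limma), and no permuted value was as extreme by rank products. Crat, carnitine acetyltransferase, differed by 0.56, Pex11a by 0.53 and Ech1, a dienoyl-CoA isomerase, by 0.53, with an FDR of 0.000857 for Crat, 0.000818 for Pex11a and 0.00085 for Ech1. Acot3, Crot and Nudt7 were the other 3 called. Hsd17b4, the multifunctional enzyme for branched and very long chains, differed by 0.02. Ehhadh, the bifunctional enzyme that takes part in dicarboxylic acid oxidation, differed by 0.11, Acox2 by -0.13 and Scp2 by -0.05. None of these 4 was called, and they were the only measured genes of the list not called. Limma adjusted p over the 11 genes ran from 0.217 to 0.878.

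Of the microsomal partners of P450 enzymes, Por, the reductase that passes electrons to every microsomal P450, was called lower by rank products. The other 4 were not called. Over all measured probe sets 12.1% were called lower. For Por the values of each rat follow. Its log2 values were 8.40, 8.84, 9.02 and 8.55 in HP rats 1 to 4, against 8.96, 9.03, 9.15 and 9.80 in control rats 1 to 4. HP rat 3 lay within the control range and the other 3 HP rats below it. The difference was -0.53 (standard error 0.20, 0.692-fold), with an FDR of 0.00225 by rank products and an adjusted p of 0.356 by limma. A dimmer probe set of Por was called lower too (-0.48, FDR 0.00216). Cyb5a and Cyb5b, cytochromes b5 that can support P450 reactions, differed by 0.08 and -0.10.

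Among receptors and cofactors, 1 of 10 measured genes was called higher and 4 lower by rank products, with a median difference of -0.11. The shares over all measured probe sets were 8.5% higher and 12.1% lower. Ppara and Rxra, the receptor pair of the Cyp4a genes, were not measured (means of 6.238 and 6.947, spans of 0.0007 each). Lpin1, a phosphatidate phosphatase and coactivator, differed by -0.50 (FDR 0.0103), Srebf1, the regulator of fatty acid synthesis, by -0.36 (FDR 0.0107), Ppargc1b, a PGC-1 coactivator, by -0.29 (FDR 0.0326) and Ppargc1a, its relative, by 0.28 (FDR 0.0279). These calls are those of the brightest probe sets: the higher call of Ppargc1a was not shared by its 2 other measured probe sets (0.06 and 0.04), and Hnf4a was called higher at its dimmer one. The diets overlapped for each of the 10, and no limma adjusted p of this list was below 0.527.

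PPARα targets outside the Cyp4 family were called higher in 9 of 19 measured genes and lower in none, with a median difference of 0.17. The shares over all measured probe sets were 8.5% higher and 12.1% lower. Pdk4, a kinase that restrains glucose oxidation, was called at its brightest probe set (0.31) and not at another (0.09). As with the peroxisomal list, the choice of genes was made with results of these arrays known. Acot1, a cytosolic acyl-CoA thioesterase, differed by 1.66 (standard error 0.29, 3.17-fold), Fgf21, a hormone of fasting, by 0.93, Vnn1, a pantetheinase, by 0.62 and Acot2, a mitochondrial thioesterase, by 0.56. The diets did not overlap for these 4, and their limma adjusted p were 0.167, 0.210, 0.167 and 0.205 in the same order. Hadha and Acadvl, enzymes of mitochondrial β-oxidation, differed by 0.09 and 0.01 and were not called.

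Other enzymes of arachidonic acid and eicosanoids, the substrates that the Cyp4f family shares, showed 3 of 18 measured genes called higher and 1 lower by rank products, with a median difference of 0.03. For comparison, 8.5% of all measured probe sets were called higher and 12.1% lower, with a median difference of -0.02. Ephx2, soluble epoxide hydrolase, differed by 0.44 (FDR 0.00653), Fads2, the Δ6-desaturase, by 0.33 (FDR 0.00647) and Elovl2, an elongase of polyunsaturated fatty acids, by 0.31 (FDR 0.00574). Elovl2 was the only one of the 18 whose diets did not overlap (adjusted p = 0.202 by limma). Cyp2c12, a steroid hydroxylase of the family that also epoxidises arachidonic acid, differed by -0.68 (FDR 0.000636, adjusted p = 0.388 by limma). Cyp2c23, an arachidonic acid epoxygenase of the rat, differed by 0.05 and Lta4h, which makes leukotriene B4, by 0.00, and neither was called.

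**Figure D4:**
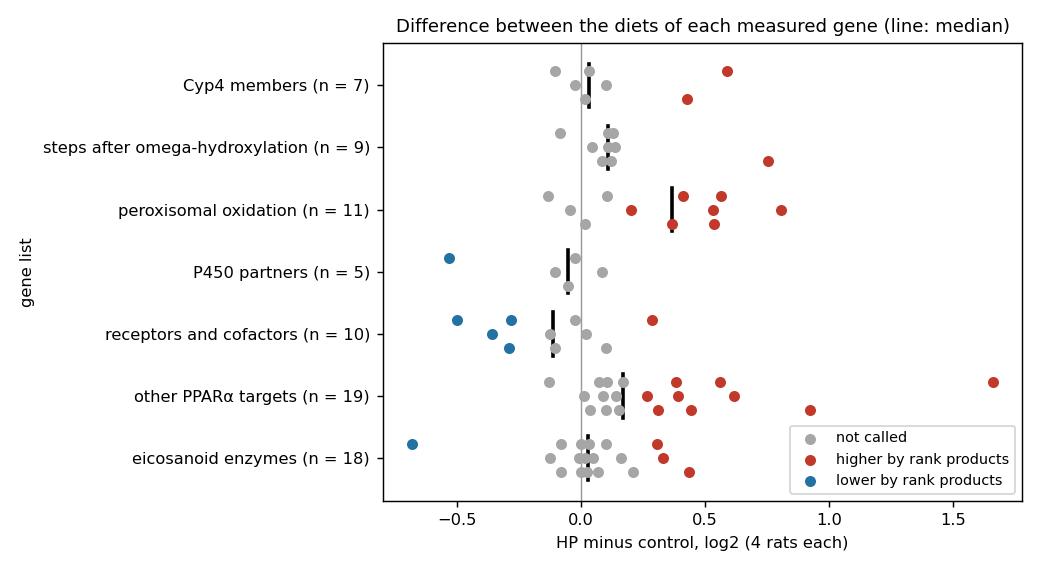
Difference HP minus control (log2) of each measured gene (points) for the 7 Cyp4 members and for the 6 lists around them, with the median as a line; points are red where rank products called the gene higher, blue where lower and grey where not called. Red points make up 7 of 11 in the peroxisomal list, 9 of 19 in the other PPARα targets and 2 of 7 for the Cyp4 members. Over all measured probe sets 8.5% were called higher. Members and lists were chosen with results of these arrays known, so their shares are a description only.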

How the data were processed

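Liver RNA of 8 rats was measured on 1 array each. According to the authors' methods and the labels, the deposited log2 values were made by FARMS summarisation of the probes of each probe set in R 2.13.1; no step was added, and details of normalization between arrays were not given in the sources used here. Genes were named from the platform annotation, using probe sets with 1 symbol (20826 probe sets, against 436 with several and 9780 with none). The members and lists were chosen with earlier results of these data known.

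Rank products were computed with numpy 2.4.6 (Python 3.11.15) over all probe sets, using 16 HP minus control differences, 1000 permutations within arrays and an FDR under 0.05. The limma 3.58.1 model (R 4.3.3; empirical Bayes with trend and robust estimation) was fitted over the 4155 probe sets spanning at least 0.05, two-sided, with Benjamini-Hochberg adjustment; 57 control probe sets were left out. Both were run on simulated data. For rank products these held only measured probe sets and fewer permutations, so they do not check the FDR found over all probe sets. The brightest measured probe set stood for a gene. Every Cyp4 gene was named, and of each list the called genes (at most 4, by size of difference), or otherwise the 2 with the largest differences; further genes were named after their values were seen. Upstream bases were aligned globally with biopython 1.88. Alternatives were other scalings, filters, variance settings, a replicate block and leaving out each rat.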

Additional observations from a re-analysis of the deposited data

Results flagged for a closer look

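The probe set listed for both Cyp4a3 and Cyp4a2 lies outside the comparison of the members, because it names no single gene, and it carried a difference between the diets. HP minus control was 0.31 (log2), with a rank products FDR of 0.00529 and a limma adjusted p of 0.167, and every HP rat lay above every control rat. This difference ran from 0.27 to 0.35 over 16 alternatives, with a limma adjusted p of 0.0722 to 0.462. Single rats far from the others of their diet were looked for by Dixon's criterion in 16 groups of 4 values, those of the 7 measured members and of this probe set, and none passed it (about 1 in 20 would by chance).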

How the results depend on the processing

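The members called higher by rank products numbered 2, and 1 when only measured probe sets were ranked; leaving out a rat gave 1 to 2, with 1 only without HP rat 3. No member was called lower by rank products in any of 12 alternatives or called by limma in any of 16. Cyp4a1, Cyp4a3, Cyp4b1 and Cyp4f4 kept their sign in all alternatives run, although Cyp4b1 was 0.0033 with control rat 3 left out, 0.20 with control rat 4 left out and 0.23 with array weights. The small differences of the other 3 changed sign. With a rat left out, Cyp4a8 ran from -0.094 (HP rat 2) to 0.119 (control rat 1) and was -0.067 without control rat 3, Cyp4f1 ran from -0.054 (control rat 1) to 0.0072 (control rat 4), and Cyp4f6 ran from -0.090 (control rat 1) to 0.065 (control rat 4) and was -0.015 without HP rat 4. Cyp4f6 was -0.051 with array weights. The cause was not tested. The Cyp4a minus Cyp4f difference ran from 0.27 to 0.55. Among alternatives chosen after seeing the data, it was 0.38 with the shared probe set counted and 0.35 without the Cyp4a1 probe set.

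Over all probe sets, rank products called 353 higher and 505 lower. These counts were 25 and 17 when only measured probe sets were ranked and 233 and 307 without the dimmest 25%, and from 85 to 586 higher and from 72 to 538 lower with a rat left out, so that the number of calls rests on the ranking background and on single rats. With the replicate number as a block, limma called 0 members and 0 probe sets in all, and the Cyp4a minus Cyp4f difference stayed 0.39. The labels give no pairing beyond the number: same-numbered rats had correlations of 0.479, 0.0308, -0.123 and -0.197 between their deviations, and 2 of 8 rats matched best with their own number. Cyp4f5, Cyp4f17 and Cyp4v3 were nearly constant, so no difference could be measured for them.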
